A study of Mus musculus with 8 samples.

Results

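Brain immune cells of App NL-G-F mice and of wild-type (WT) mice that had only been given water were compared, library against library. The cells were those of the WT control and APP control libraries with at least 500 UMIs (unique molecular identifiers, each 1 counted RNA molecule), at least 200 genes, at most 5% mitochondrial UMIs and 1 clear hashtag antibody (at least 50 counts, and at least 3 times the second hashtag). That left 6747 WT and 6700 APP cells, together 13447 of the 46314 cells that pass the same filter in the 8 libraries of the series. Within each library the cells were sorted by 7 gates, each needing 1 UMI of every gene named. T cells had Cd3e and Cd3d, B cells Cd79a and Ms4a1, natural killer (NK) cells Ncr1 without Cd3e, group 2 innate lymphoid cells (ILC2) Gata3 and Il1rl1 without Cd3e, macrophages C1qa and C1qb, monocytes Ly6c2 and Ccr2 without C1qa, and neutrophils Csf3r with at least 10 UMIs of S100a8. The UMIs of each gene were summed over the cells of a gate and given as CPM, with all UMIs of the gate scaled to a total of 1000000 in each library.

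The study asked how gut inflammation bears on amyloid disease, and sequenced CD45.2+ cells sorted from perfused brains of WT and App NL-G-F mice after water alone, acute or chronic dextran sulfate colitis, or food allergy. Both control groups were C57BL/6J mice of 16 weeks by the labels, given water alone. The App NL-G-F mice carry, at their own App locus, a humanized amyloid-β sequence that holds the mutations named NL (Swedish), G (Arctic) and F (Iberian), so no transgene promoter is involved. The WT mice were bought from a vendor and the App line came from a research stock, so that genotype and origin of the mice cannot be told apart here. The study used males and females, and the labels do not give the sex of the mice in a library. Each genotype is 1 library with 4 hashtag antibodies. The labels tie no hashtag to a mouse, so the hashtag groups show the spread inside a library and give no p-value. No test between the control libraries was possible, and the intervals given cover counting error only.

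In App NL-G-F mice the mutant precursor protein is cut by β- and γ-secretase into an aggregation-prone amyloid-β, and plaques form in the cortex early in life. Microglia and the macrophages of the meninges and vessels take up amyloid and, near plaques, switch on genes of lipid handling and lysosomes such as Apoe, Trem2, Lpl and Cd9. T cells, B cells, NK cells, ILC2, monocytes and neutrophils reach the brain and its borders from the blood, skull marrow or local pools, and carry the chemokine, cytokine and granule genes followed below.

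App itself, the gene that carries the knock-in alleles, stood at 116 CPM over all cells of the WT control library and 100 CPM over those of the APP control library, and at 89.2 to 168 CPM in the other 6 libraries. The 5′ counts do not separate the alleles, so these levels check no label. The WT control library held 33297765 UMIs over all barcodes and the APP control library 40114948, and the cells had a median of 2647 and 2928 UMIs. The libraries shared 66 cell barcodes. Every gate carried the markers of its own type in both libraries. In each library, hashtags 4 and 5 had low and hashtags 6 and 7 high levels of 10 immediate-early genes, the fast-response genes that also rise during tissue dissociation. In the T gate their sum was 1460, 1156, 5971 and 6307 CPM in WT hashtags 4 to 7, and 1029, 827, 3803 and 4984 CPM in APP hashtags 4 to 7. Fibroblast markers were at 56.8 CPM in the near-empty droplets (under 100 UMIs) of the WT library and at 1.40 CPM in those of the APP library.

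Monocytes made up a larger share of the cells in the APP control library, by a small margin. Their share was 4.67%, 6.55%, 8.80% and 11.3% in WT hashtags 4 to 7, and 6.29%, 11.7%, 9.42% and 11.4% in APP hashtags 4 to 7. Pooled, it was 8.12% against 9.73%, a difference of 1.61 percentage points (95% interval 0.635 to 2.58). The APP groups were higher at the same hashtag number, but the ranges overlap, and the numbers pair no mice. Of the 7 gates, monocytes alone had a difference that kept its direction when any 1 hashtag group was left out (0.918 to 2.77 points). Most of it lay in hashtags 4 and 5, with 3.05 points (1.74 to 4.36). In hashtags 6 and 7 it was 0.636 points (−0.792 to 2.07).

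Neutrophils were 2.31% of WT and 3.06% of APP cells, a difference of 0.748 points (0.191 to 1.31). By hashtag they were 0.217%, 0.0970%, 4.40% and 3.52% of WT cells and 1.07%, 2.45%, 3.40% and 5.29% of APP cells. The gap sat in hashtags 4 and 5, which held 4 WT and 60 APP neutrophils (1.63 points). Free S100a8, a gene of this gate, was at 1744 CPM in the near-empty droplets of WT and 8148 CPM in those of APP. With the gate set on Csf3r and Cxcr2 in place of S100a8 the difference was 0.104 points. After cells of at least 1000 UMIs were thinned to 1000, with 204 WT and 250 APP cells left out, it was 0.163 points. The S100a8 minimum was kept in thinning, so that both shares fell, to 0.535% of WT and 0.698% of APP cells. Leaving out WT hashtag 5 or APP hashtag 7 turned it to −0.227 and −0.0348 points.

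The other shares, like those of monocytes and neutrophils, differed less than the hashtag groups of 1 library did. T cells were 23.2% of WT and 25.0% of APP cells (1.83 points, 0.378 to 3.29), but the groups ran from 15.6% to 50.5% in WT and from 12.8% to 44.7% in APP. The mean of the hashtag groups gave −1.81 points and thinning −0.131 points. Leaving out WT hashtag 5 or APP hashtag 4 gave −1.51 and −4.78 points. ILC2 were 5.23% and 4.43% (−0.799 points, −1.54 to −0.0639), and without WT hashtag 6 or APP hashtag 5 the difference was 0.492 and 0.548 points. B cells were 14.6% and 13.7% (−0.957 points, −2.15 to 0.232), NK cells 6.28% and 6.22%, and macrophages 3.84% and 3.52%. In none of the 7 gates did the 4 groups of 1 library lie apart from the 4 of the other.

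**Figure D1:**
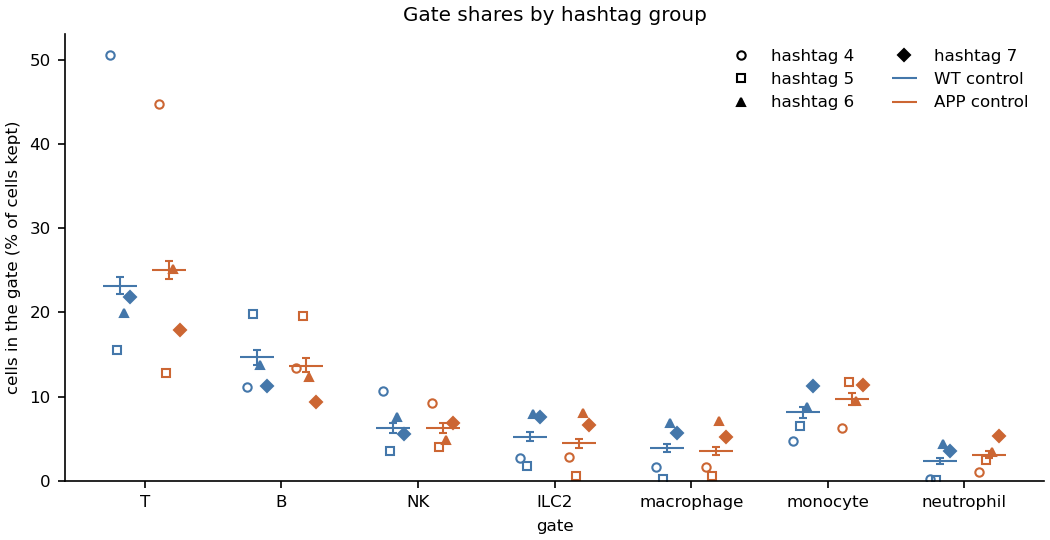
Share of the cells of each control library that passed each gate (percent, y axis). Points are the 4 hashtag groups of a library and bars the pooled share with its exact 95% binomial interval, which covers counting error only. The hashtag groups of WT control and APP control overlap in all 7 gates.

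Most genes that differed at least 2-fold between the control libraries were higher in APP. A gene was measured in a gate with at least 50 UMIs over both libraries and 50 CPM in either, and its log2 ratio (APP over WT) was taken with 10 CPM added to both. The counts below and their percentages include variable, diversity and joining segments of antigen receptors. Past 2-fold in either direction, such segments were 26 genes in T cells, 53 in B cells, 8 in NK cells and 5 in ILC2. They were 9 in macrophages, 13 in monocytes and 0 in neutrophils. At 2-fold, 75 of 3395 genes in T cells were higher (2.21%) and 14 lower (0.412%). In B cells 96 of 3282 were higher (2.93%) and 40 lower (1.22%). In NK cells 53 of 3681 were higher (1.44%) and 29 lower (0.788%), and 78 and 22 with TMM scaling. ILC2 had 87 of 3569 higher (2.44%) and 41 lower (1.15%). Macrophages had 80 of 3182 higher (2.51%) and 58 lower (1.82%), and 92 and 43 with TMM scaling. Monocytes had 81 of 3208 higher (2.52%) and 56 lower (1.75%), and neutrophils 80 of 2286 higher (3.5%) and 63 lower (2.76%).

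Fewer kept their hashtag groups apart as well, that is, with every group of 1 library above every group of the other (groups of at least 20 cells in the gate). For genes higher in APP these were 46 in T cells (1.35%), 46 in B cells (1.4%), 44 in NK cells (1.2%), 56 in ILC2 (1.57%), 54 in macrophages (1.7%), 64 in monocytes (2.0%) and 78 in neutrophils (3.41%). For genes lower in APP they were 3 in T cells (0.0884%), 3 in B cells (0.0914%), 7 in NK cells (0.19%), 8 in ILC2 (0.224%), 40 in macrophages (1.26%), 0 in monocytes and 61 in neutrophils (2.67%). The counts of macrophages and neutrophils rest on fewer groups, since only WT hashtags 6 and 7 had 20 cells there, against 3 APP groups. The median log2 ratio of all measured genes lay between −0.20 and −0.09 in the 7 gates.

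Many genes higher in APP were shared between cell types, and most of these had short transcripts. Apart from variable segments of antigen receptors and genes of the mitochondrial genome, 49 genes were higher with their hashtag groups apart in at least 3 gates, and 25 of them in all 7. Of the 49, 17 had a transcript under 500 nt, 37 one under 1000 nt and 12 a longer one, such as Cox17 (3690 nt) and Atp5md (2733 nt), both called in all 7 gates. Lengths are those of the annotated principal or longest transcript, and which transcript was expressed was not tested. By gene symbol, the 49 comprised 12 genes of ribosomal proteins, 13 of oxidative phosphorylation (Cox17 among them), 3 of histones and 21 others. Rps29, a protein of the small ribosomal subunit with a 390 nt transcript, led the list. In T cells it was at 762, 763, 798 and 833 CPM in WT hashtags 4 to 7 and at 4784, 4860, 4492 and 4390 CPM in APP hashtags 4 to 7. The groups of a library lay close together and the libraries far apart, with 788 against 4634 CPM pooled (5.88-fold, 5.69 to 6.08). Rpl38 went from 625 to 3637 CPM and Rps28 from 816 to 4461 CPM in the same cells. In neutrophils, where these genes are low, Rps29 went from 213 to 1732 CPM.

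Subunits of the respiratory chain and histones followed the same course. Atp5k, a subunit of ATP synthase, was at 33.8 CPM in WT monocytes and 234 CPM in APP monocytes. Ndufb1-ps, which encodes a subunit of complex I, went from 32.7 to 206 CPM in NK cells. Hist1h4d, of a multigene family whose copies share sequence, went from 18.3 to 137 CPM in B cells, and Hist1h2ap from 18.8 to 179 CPM in monocytes and from 6.77 to 105 CPM in neutrophils. Genes of ribosomal proteins, too, have many near-identical copies in the genome, and how reads were split among copies was not tested.

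The difference followed transcript length and reached the droplets without a cell. Genes with transcripts under 500 nt had median log2 ratios of 0.48 to 1.20 in the 7 gates, and those of 2000 nt or more medians of −0.23 to −0.10. All 49 genes were higher in the near-empty droplets of the APP library too, 45 of them at least 2-fold, with a median log2 ratio of 1.53 there against 1.39 over all cells. The WT control library was the lowest of the 8 libraries in 48 of the 49 genes, while the APP control library was the highest in 16. Over all cells Rps29 was at 628, 3766, 2874 and 1276 CPM in the WT control, acute, chronic and allergy libraries, and at 3555, 2051, 2469 and 2525 CPM in the APP libraries in the same order. The median log2 ratio of the 49 genes was −0.24 in the acute, −0.15 in the chronic and 0.53 in the allergy pair. Its sign thus differed between the other treatment pairs. Among transcripts of at least 1000 nt alone (chosen after seeing the data), 17 genes in T cells were at least 2-fold higher and 4 lower, 24 and 7 in B cells, and 13 and 17 in NK cells, where the lower genes were then the more numerous.

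**Figure D2:**
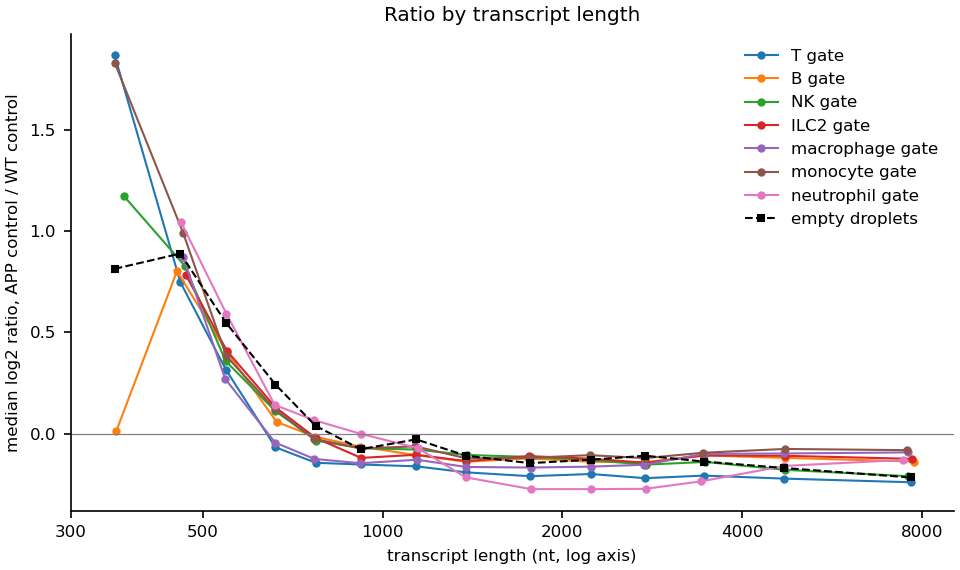
Log2 ratio of APP control over WT control (y axis) by transcript length (nt, log axis) in the 7 gates, as the median of the genes in each length class. The dashed line with squares is the near-empty droplets. Transcripts under 500 nt lie above 0 and those of 2000 nt or more below 0 in every gate, and in B cells the class under 400 nt (0.02) lies below the next (0.80).

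**Figure D3:**
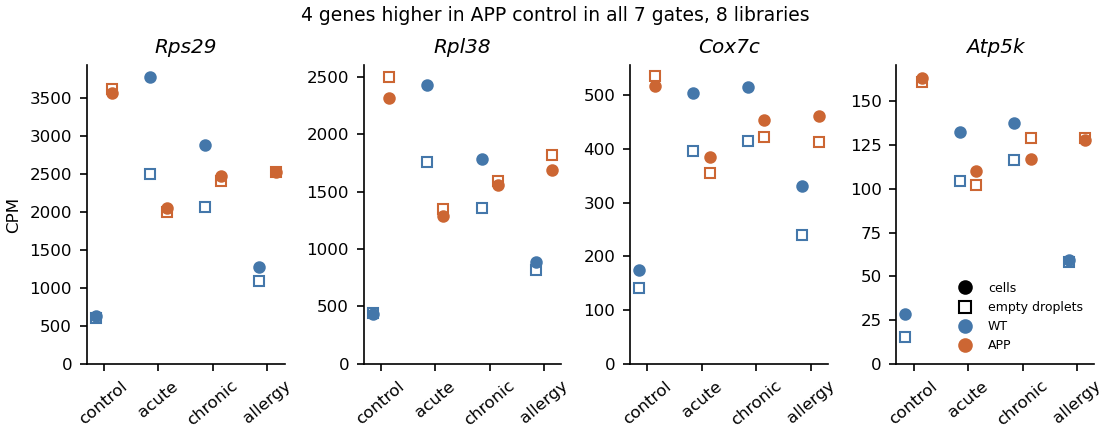
Level (CPM, y axis from 0) of Rps29, Rpl38, Cox7c and Atp5k in the 8 libraries, by treatment, over all cells (filled circles) and in the near-empty droplets (open squares), WT in blue and APP in orange. The WT control library lies lowest in each, with Rps29 at 628 CPM against 1276 to 3766 CPM in the other 7.

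Because of this, the genotype was also compared in the other 6 libraries, which the control comparison does not use: WT and APP, each after acute colitis, chronic colitis and allergy. edgeR's quasi-likelihood test was run on the UMIs of each gate with treatment as a block, with 3 libraries a genotype. At a Benjamini-Hochberg adjusted p under 0.05, edgeR called 19 of 11478 genes in T cells (0.166%), 64 of 9327 in NK cells (0.686%), 32 of 8675 in ILC2 (0.369%), 14 of 9683 in macrophages (0.145%) and 2 of 11827 in monocytes (0.0169%). It called 0 of 11109 genes in B cells and 0 of 9609 in neutrophils, where 734 and 600 genes had an unadjusted p under 0.05 and DESeq2 called 26 and 37. For the 49 shared genes the edgeR medians in these libraries lay between −0.04 and 0.15 on the log2 scale. These 6 libraries differ in their hashtag groups: those with low immediate-early genes held 6.56%, 32.9% and 17.6% of the T-gate cells of the WT libraries, and 47.0%, 74.6% and 58.2% of those of the APP libraries. With the high groups alone, edgeR called 2 genes in T cells, 34 in NK cells, 14 in ILC2, 12 in macrophages and 7 in monocytes. Of the calls made with all groups, these included 0 of 19 in T cells, 30 of 64 in NK cells and 13 of 32 in ILC2. In macrophages they included 9 of 14 and in monocytes 1 of 2.

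A few genes were lower in APP in several cell types, and these held their direction in the other libraries. Gm21887, a predicted gene on chromosome X (GRCm38, chrX:170009659-170019281), was lower with its groups apart in 5 gates. In T cells it was at 64.2, 74.0, 226 and 85.4 CPM in WT hashtags 4 to 7, and at 27.0, 22.8, 21.5 and 19.2 CPM in APP hashtags 4 to 7. The highest APP group lay below the lowest WT group, and 1 WT group stood far above the others. Pooled, it was at 120 against 23.4 CPM in T cells, 163 against 29.4 CPM in B cells and 152 against 16.0 CPM in NK cells. In the near-empty droplets it was at 83.0 CPM in WT and 17.7 CPM in APP. In the other 6 libraries its T-cell log2 difference was −1.83 with an edgeR adjusted p of 0.355 (0.000454 to 0.905 over 9 alternatives), and in macrophages −2.04 with 0.0509 (1.39e-05 to 0.44).

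Ifi208, a member of the interferon-inducible Ifi200 family (chr1:173673675-173698395), was lower in APP lymphocytes. It was also lower over all cells (35.0 against 12.3 CPM) and in the near-empty droplets (59.0 against 19.1 CPM). In NK cells it was at 142, 94.4, 87.4 and 57.1 CPM in WT hashtags 4 to 7, and at 19.4, 14.5, 19.4 and 40.4 CPM in APP hashtags 4 to 7. The groups did not overlap, and the pooled level was 95.2 against 24.1 CPM (0.253-fold, 0.170 to 0.368). In T cells it was at 115 against 48.9 CPM, with WT groups from 62.7 to 142 CPM and APP groups from 37.6 to 57.8 CPM. In ILC2 it was at 45.2 against 7.82 CPM, under the 50 CPM that a measured gene needs. The other libraries had the same order: in NK cells 67.8, 62.0 and 72.1 CPM in the WT acute, chronic and allergy libraries, against 15.5, 15.3 and 15.3 CPM in the APP libraries. edgeR gave a log2 difference of −2.12 there (adjusted p = 0.000236, at most 0.0147 over 9 alternatives). In T cells edgeR gave −1.23 (adjusted p = 0.0291, 1.1e-05 to 0.145, with 7 of 9 alternatives under 0.05), and in ILC2 −3.36 (adjusted p = 0.00197, at most 0.0306).

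Eno1, the glycolytic enzyme enolase (chr4:150236721-150248879), was lower in 3 gates. It was at 359, 309, 298 and 308 CPM in WT NK cells of hashtags 4 to 7, and at 120, 170, 158 and 144 CPM in APP NK cells. Every APP group was below every WT group, as in T cells (327 against 153 CPM) and neutrophils (589 against 259 CPM). In the near-empty droplets Eno1 was at 220 CPM in WT and 120 CPM in APP. In the other 6 libraries edgeR gave a log2 difference of −1.23 in NK cells (adjusted p = 0.0125, at most 0.0305 over 9 alternatives), and −1.17 in T cells (adjusted p = 0.232, 0.000162 to 0.851). Gapdh, another enzyme of glycolysis, was named after its values were seen and differed by less than 2-fold on the scale with 10 CPM added. It went from 559 to 343 CPM in NK cells, with WT groups of 495 to 653 and APP groups of 280 to 439 CPM. In ILC2 it went from 543 to 274 CPM. edgeR called Gapdh in the other libraries in both gates (NK −0.96, adjusted p = 0.00159, called in 8 of 9 alternatives, and ILC2 −0.97, adjusted p = 0.00197, in 9 of 9). Eno1 and Gapdh have near-identical copies elsewhere in the mouse genome, and how reads were split among these copies was not tested.

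NK cells had, besides these, a lower level of Ccl4 in APP. Ccl4, a chemokine that activated NK cells release, was at 841, 708, 817 and 872 CPM in WT hashtags 4 to 7 and at 249, 83.4, 575 and 278 CPM in APP hashtags 4 to 7. The lowest WT group lay above the highest APP group, and the pooled level was 811 against 293 CPM. In the other libraries edgeR gave −1.16 (adjusted p = 0.00214, called in 7 of 9 alternatives), but −0.73 (adjusted p = 0.582) with the high immediate-early groups alone. Other chemokines of NK cells differed in direction. Ccl3 was at 93.7 against 46.8 CPM, Ccl5 at 5917 against 6296 CPM and Xcl1 at 825 against 855 CPM. In the other libraries edgeR called Ccl3 lower (−0.75, adjusted p = 0.0493) and Ccl5 higher (0.63, adjusted p = 0.0363). With the high immediate-early groups alone their edgeR adjusted p was 0.965 and 0.120. Cxcl2, named after its values were seen, was at 22.7 against 60.2 CPM in the control pair and at −2.26 in the other libraries (edgeR adjusted p = 6.23e-05). In the control pair the remaining effector genes stayed near the median of all genes. Over the 14 genes of the NK effector list the median log2 ratio was 0.05, with 1 gene at least 2-fold lower (background 0.788%). Gzma went from 1785 to 2000 CPM, Gzmb from 643 to 667 CPM and Prf1 from 246 to 190 CPM. In the other libraries edgeR called 1 of the 14 higher and 2 lower, against 0.686% of all genes. Rnf213, a ubiquitin ligase, was at 101 against 42.1 CPM with its groups apart, and at −0.53 in the other libraries (edgeR adjusted p = 0.256).

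Among immediate-early genes of NK cells, 4 of 9 measured were at least 2-fold lower (all-gene background 0.788%), none with its groups apart. These were Nr4a1, Jun, Egr1 and Junb, transcription factors that rise within minutes of stimulation. Nr4a1 was at 113, 7.26, 180 and 232 CPM in WT hashtags 4 to 7 and at 5.83, 7.25, 74.3 and 68.2 CPM in APP hashtags 4 to 7. WT was higher at hashtags 4, 6 and 7, and the libraries were level at hashtag 5. Over the list the median log2 ratio was −1.47 in the low and −0.71 in the high groups. In the other libraries edgeR called Nr4a1 (−2.22, adjusted p = 6.23e-05, in 9 of 9 alternatives) and Jun (−1.75, adjusted p = 0.00133, in 8 of 9). The list as a whole was lower in the other gates too, with medians of −0.82 in monocytes, −0.66 in ILC2, −0.62 in neutrophils, −0.38 in T cells, −0.31 in macrophages and −0.21 in B cells. These genes mark the sets of hashtag groups, and the part of tissue handling in their levels was not tested.

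**Figure D4:**
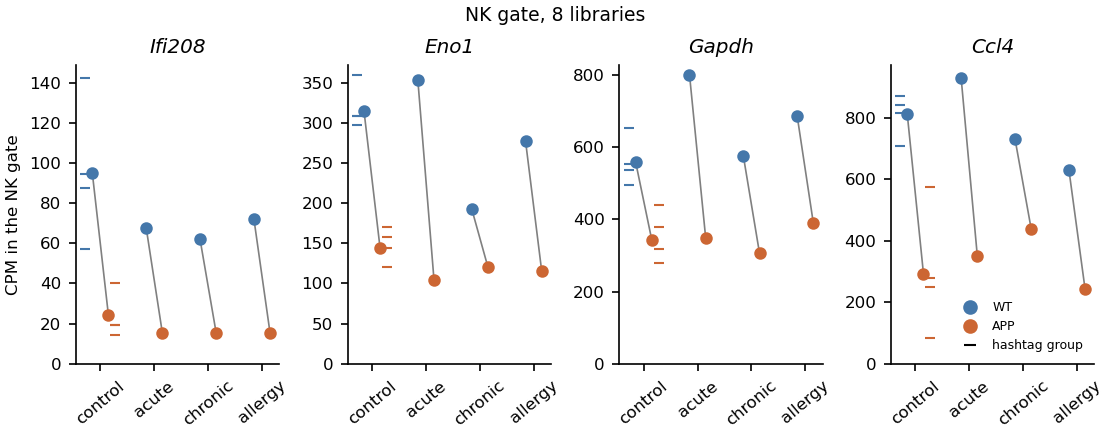
Level in NK cells (CPM, y axis from 0) of Ifi208, Eno1, Gapdh and Ccl4 in the 8 libraries by treatment, with grey lines joining WT (blue) and APP (orange) and short dashes for the hashtag groups of the control pair. The APP library lies below the WT library in each of the 4 treatments, and the control hashtag groups lie apart for all 4 genes.

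Of the 64 genes edgeR called in NK cells of the other libraries, 27 were measured in the control pair, and 24 of them had the same sign there. All 7 genes lower with their groups apart in the control NK cells had the same sign in the other libraries, and edgeR called 3 of them. Of the 44 that were higher, 31 had the same sign. The same-sign share over all measured genes is not given here, and the other libraries differ by genotype in their low and high hashtag groups. Fibroblast markers, which do not belong to NK cells, were at 18.5 CPM in the WT NK gate and 0.668 CPM in the APP NK gate. Of these markers, Dcn, Col1a1 and Col1a2 were themselves among the 64 edgeR calls, each lower in APP. Variable segments such as Igkv3-12 (lower) and Igkv15-103 (higher) were among them too. The ILC2 calls also held Dcn and Col1a2, both lower. Of the erythroid genes, edgeR called 3 of 5 higher in macrophages and 1 of 2 in monocytes. The part of RNA from other cell types in the remaining calls was not tested.

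ILC2, tissue lymphocytes that answer alarm signals with type 2 cytokines and amphiregulin, had a lower level of Areg in APP, which encodes amphiregulin. Areg was at 25.3, 83.6, 544 and 1191 CPM in WT hashtags 4 to 7, and at 98.2, 314 and 311 CPM in APP hashtags 4, 6 and 7 (hashtag 5 had 9 cells). The groups overlapped, the pooled level was 640 against 272 CPM, and in the low immediate-early groups the log2 ratio had the opposite sign (0.70). In the other libraries edgeR gave −0.82 (adjusted p = 0.0198, called in 5 of 9 alternatives, at most 0.192). The ILC2 effector list, 8 genes measured, had a median log2 ratio of −0.42, and of 0.62 in the low groups. Of the 8 genes, 1 was at least 2-fold lower (background 1.15%). Il5 was at 130 against 77.1 CPM, Il13 at 83.9 against 42.5 CPM and Calca at 3386 against 3335 CPM, all with overlapping groups. Receptor and identity genes had a median of −0.20 (0.14 in the low groups), close to the −0.11 of all genes in this gate.

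Genes that stood out in ILC2 alone rested on few cells. Ms4a4b, a lymphocyte membrane protein, was at 62.9 against 4.47 CPM, but these were 57 and 4 UMIs, with 47.4% of the WT UMIs in 1 cell, and among cells of exactly 1 gate the log2 ratio was 0.021. Trbc1, a constant segment of the T cell receptor, was at 67.3 against 21.2 CPM over 49 WT and 18 APP cells. Erythroid markers reached 5830 CPM in the ILC2 gate of APP hashtag 7 and stayed under 65 CPM in the other groups. Macrophage markers in this gate summed to 605 CPM in WT and 44.7 CPM in APP. The part of such stray RNA in the ILC2 values was not tested.

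T cells differed little outside the shared genes. The lists of effector genes (16 measured, median log2 ratio −0.31), naive genes (8 measured, −0.13, and 0.02 in the low groups) and subset genes (9 measured, −0.16) lay near the all-gene median of −0.20. Cd8a was at 457 against 485 CPM and Cd4 at 63.7 against 52.8 CPM. Trdc, the constant segment of the δ receptor chain, was at 96.2 against 48.2 CPM, with WT groups of 15.5 to 192 and APP groups of 14.5 to 86.6 CPM.

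Il17a, the cytokine of γδ and helper type 17 cells, was the 1 of 9 measured subset genes at least 2-fold higher (background 2.21%). It stood at 2.62, 0, 568 and 354 CPM in WT hashtags 4 to 7 and at 0.403, 0, 80.8 and 2462 CPM in APP hashtags 4 to 7. The pooled difference, 247 against 546 CPM, lay in APP hashtag 7: without that group the log2 ratio was −2.80. In the other libraries it was −1.10 (edgeR adjusted p = 0.707).

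Antibody constant-region genes differed most among the genes named in B cells, and their UMIs lay in few cells. Igha, the heavy chain of IgA, was at 20.3, 36.0, 1057 and 2564 CPM in WT hashtags 4 to 7 and at 7.13 to 9.38 CPM in the 4 APP groups. It was at 887 against 8.74 CPM pooled, with 60.9% of the WT UMIs in 1 cell. Ighg2c had 0 UMIs in WT B cells, which allows up to 0.998 CPM (3 counts in the gate), and 460 CPM in APP, at least 461-fold higher, from 12 cells of which 1 held 49.2%. Cma1, a mast cell protease, was at 108 against 2.10 CPM, with 97.2% of the WT UMIs in 1 cell. Genes of the B cell itself moved less: mature B cell genes had a median of −0.11 (12 measured), developing B cell genes −0.11 (5 measured), plasma cell genes −0.12 (8 measured) and MHC class II genes −0.27 (10 measured, each of them below 0 and none 2-fold). The sign turned between the hashtag sets: in the low and high immediate-early groups the median was 0.28 and −0.53 for mature B cell genes, 0.26 and −0.73 for MHC class II genes, and −1.04 and 0.85 for plasma cell genes.

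Wfdc21, a secreted protein that neutrophils also make, was at 5.99 CPM in WT B cells (14 cells) and 196 CPM in APP B cells (56 cells), with the groups apart. Neutrophil markers in the B gate summed to 298 CPM in WT and 8550 CPM in APP, and in the near-empty droplets to 6568 and 11729 CPM. Their part in the Wfdc21 difference was not tested.

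Macrophages had higher Lpl in APP, a lipase of the plaque-associated program. Lpl was at 12.1 and 10.4 CPM in WT hashtags 6 and 7 and at 714, 45.0 and 58.0 CPM in APP hashtags 4, 6 and 7. Every APP group lay above both WT groups, and the pooled level was 10.2 against 109 CPM (10.7-fold, 5.92 to 21.2, from 12 and 135 UMIs). Cd9 was at 88.9 and 96.5 CPM in WT and at 2272, 137 and 66.8 CPM in APP, and thus overlapped. APP hashtag 4, with 27 cells, carried most of this. It had 8840 CPM of the microglia gene list, against 657 and 1189 CPM in the WT groups and 1229 and 471 CPM in APP hashtags 6 and 7. It also had 1830 CPM of Trem2, where the others had 121 to 192 CPM, and 29596 CPM of Apoe, where the others had 10184 to 15746 CPM. WT hashtag 4 had 15 macrophages and was under the minimum, so no WT group stands beside it.

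Over the list of plaque-associated phagocyte genes, 19 were measured in the control macrophages. Of these, 2 were at least 2-fold higher (Lpl and Cd9, background 2.51%) and 1 lower (Spp1, background 1.82%). The median log2 ratio of the 19 was 0.20 against −0.12 for all genes. In the high groups alone the median was −0.05. The other 6 libraries gave a median of 0.56 over 23 genes, 20 of them above 0, with Lpl at 1.69 (edgeR adjusted p = 1) and Cd9 at 1.23 (edgeR adjusted p = 0.084). Microglia genes had a median of 0.54 in the control pair (5 measured) and 1.03 in the other libraries (9 tested), and border macrophage genes 0.43 in both (16 measured and 17 tested). In the high groups alone the medians were −0.21 for microglia and 0.14 for border macrophage genes. In the low groups, with APP hashtag 4, they were 1.31 and 2.45. These low groups held 19 WT and 36 APP macrophages, and both WT groups were under the minimum of 20 cells. These lists share members, Trem2 among them.

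Several inflammatory genes were lower in APP macrophages, and others were not. Of 14 measured chemokines and cytokines 5 were at least 2-fold lower (background 1.82%), 4 of them with the groups apart, and the median log2 ratio was −0.57. Cxcl2, a neutrophil attractant, was at 1577 and 2655 CPM in WT and at 441, 1173 and 674 CPM in APP hashtags 4, 6 and 7. Osm was at 82.7 against 25.9 CPM, Il1rn, which encodes the interleukin-1 receptor antagonist, at 69.0 against 9.71 CPM, and Ptgs2, the inducible cyclooxygenase, at 75.9 against 28.3 CPM. The chemokine Ccl7, kept in the border macrophage list, was at least 2-fold higher with its groups apart (169 against 353 CPM), and Ccl8 of the same list was at 256 against 476 CPM. Monocyte markers in this gate summed to 15241 CPM in WT and 9602 CPM in APP, and neutrophil markers to 7158 and 4810 CPM, and their part in these genes was not tested. In the other libraries the list median was −0.39 over 16 genes, with Cxcl2 at −0.55 and Osm at −1.17 (edgeR adjusted p = 1 and 0.375).

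Genes of stromal cells were lower in the same gate. Igf2 was at 51.2 and 177 CPM in WT and at 0, 1.80 and 7.04 CPM in APP. Igfbp7 had 68 UMIs in WT and 2 in APP, a ratio of 0.0279 (0.00331 to 0.105), and Serping1, a complement inhibitor, was at 56.3 against 4.85 CPM. Each was seen in 7 to 11 WT cells. Fibroblast markers summed to 74.2 CPM in the WT macrophage gate and 21.0 CPM in the APP gate, and their part in these genes was not tested. Jchain, the joining chain of IgA and IgM, was at 16.2 against 3086 CPM, with 53.7% of the APP UMIs in 1 cell.

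Monocytes of the APP library had less Apoe and, in hashtags 6 and 7, fewer inflammatory transcripts, though no gene was lower with its groups apart. Apoe, the lipid carrier that rises as monocytes become macrophages, was at 360, 58.0, 2586 and 2916 CPM in WT hashtags 4 to 7, and at 16.6, 34.7, 395 and 677 CPM in APP hashtags 4 to 7. Each APP group lay below the WT group of the same number, and the pooled level was 1617 against 332 CPM. Cxcl2 was at 97.0, 32.5, 573 and 777 CPM in WT and at 0, 0, 87.1 and 212 CPM in APP, and Il1b was at 455 against 113 CPM pooled. Of 11 measured chemokines and cytokines 4 were at least 2-fold lower (background 1.75%): Cxcl2, Il1b, Ptgs2 and Cxcl10, with a median of −0.94. The summed list was at 792, 812, 3670 and 3774 CPM in WT hashtags 4 to 7 and at 847, 915, 1356 and 1732 CPM in APP hashtags 4 to 7, so that the low groups had the opposite order, and the median was −0.19 in the low and −1.03 in the high groups. The Cxcl10 level of WT was 224 CPM in hashtag 6 and 2.19 CPM in hashtag 7. In the other libraries edgeR gave −1.44 for Apoe (adjusted p = 0.469) and −2.56 for Cxcl2 (adjusted p = 0.0993), and the list median was −1.21 over 15 genes. Macrophage markers in the monocyte gate, Apoe among them, summed to 1900 CPM in WT and 544 CPM in APP.

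Cell-cycle genes of monocytes had a median log2 ratio of 0.35, with 14 of 16 above 0 and none 2-fold. In the low groups the median was −0.06 and in the high groups 1.01. The other libraries gave 0.74, with 16 of 16 above 0. Classical monocyte genes had a median of −0.27 (15 measured, 0.43 in the low and −0.52 in the high groups) and non-classical genes −0.25 (3 measured).

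In neutrophils, chemokine and maturity genes were among those lower with their groups apart. Only 2 WT groups stood against 3 APP groups here, so groups lie apart more readily than in gates with 4 and 4. Of 63 genes at least 2-fold lower in neutrophils 61 had their groups apart, against 0 of 56 in monocytes. Both WT groups had high immediate-early genes, while APP hashtag 5 had low ones. The share of such genes can thus not be ranked against that of other gates. Ccl4 was at 390 and 225 CPM in WT hashtags 6 and 7 and at 4.39, 86.9 and 96.9 CPM in APP hashtags 5, 6 and 7. Tnfaip6, an inflammation-induced matrix protein, was at 157 and 114 CPM in WT and at 17.6, 22.5 and 45.5 CPM in APP. Mrgpra2b, a receptor of mature neutrophils, was at 98.4 and 105 CPM in WT and at 30.7, 21.0 and 20.6 CPM in APP. In each of these the WT groups lay above all 3 APP groups. Of 8 measured chemokines and cytokines 4 were at least 2-fold lower with the groups apart (background 2.67%), namely Ccl4, Il1b, Osm and Ptgs2, with a median of −0.97. Il1b was at 810 and 2522 CPM in WT and at 70.2, 538 and 654 CPM in APP.

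The mature neutrophil list had 14 genes measured, none above 0. Of these, 3 were at least 2-fold lower with the groups apart (background 2.67%). They were Ifitm1 (3196 against 1294 CPM), Il1r2 (1716 against 744 CPM) and Il1b, which is in both lists. The azurophil granule genes, made at the promyelocyte stage, went the other way, with a median log2 ratio of 0.86 and 5 of 6 above 0. Ctsg, the cathepsin G gene, was at 155 and 4.45 CPM in WT and at 1488, 769 and 256 CPM in APP, from 9 WT and 17 APP cells. Elane was at 813 and 80.1 CPM in WT and at 4420, 2716 and 853 CPM in APP. Secondary granule genes had a median of −0.36 (12 measured). In hashtags 4 and 5, with 4 WT cells, the medians had the opposite sign for the azurophil (−1.91), secondary granule (1.39) and chemokine (0.31) lists.

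The other libraries gave the neutrophil chemokine list a median of −1.82, with each of its 16 genes below 0. They gave the mature list −0.22 and the azurophil list 0.26, with Ctsg at 0.37 (edgeR adjusted p = 0.951). Of the 61 genes lower with their groups apart, 52 had the same sign there. Of these, 22 had an unadjusted edgeR p under 0.05, against 600 of all 9609 genes tested, in either direction. Among the 22 were Tnfaip6 (−2.05, adjusted p = 0.767) and Mrgpra2b (−1.31, adjusted p = 0.537). The same-sign share over all measured genes is not given here, and these libraries differ by genotype in their low and high hashtag groups. H2-Aa, a chain of MHC class II, did not keep its direction. It was at 37.2 and 22.3 CPM in WT and at 123, 243 and 251 CPM in APP, from 7 and 9 cells, and in the other libraries it was at −2.23 (edgeR adjusted p = 0.369).

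**Figure D5:**
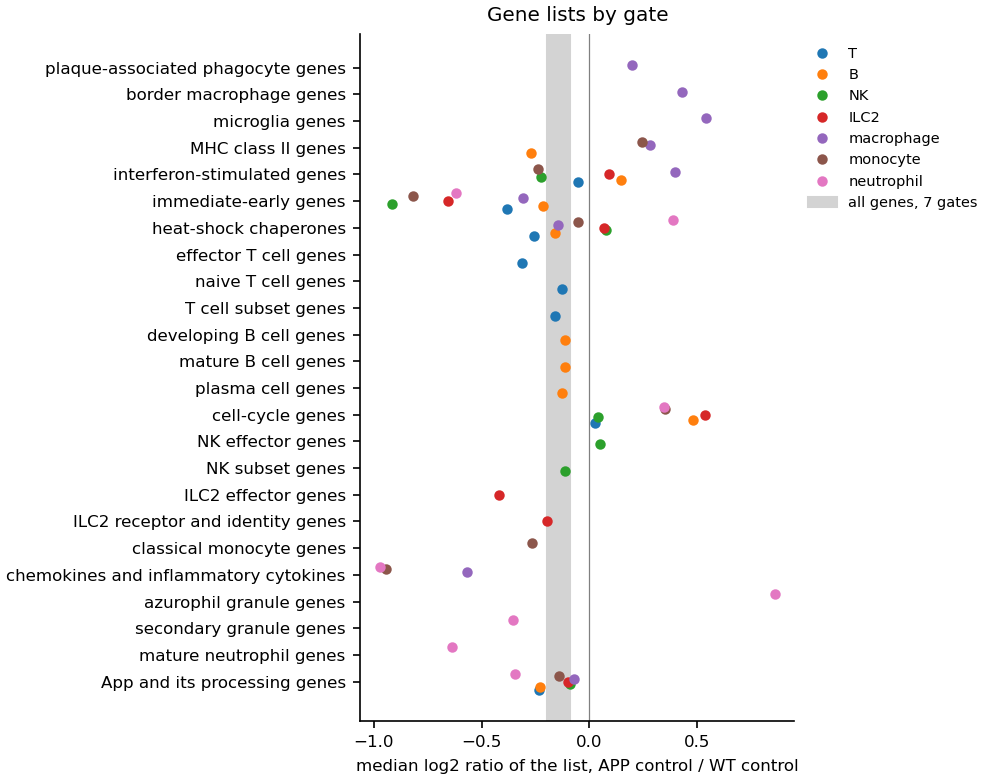
Median log2 ratio of APP control over WT control (x axis) for gene lists with at least 5 genes measured, 1 point a gate. The grey band spans the medians of all measured genes in the 7 gates. The chemokine and cytokine list lies lowest in monocytes (−0.94) and neutrophils (−0.97), and the azurophil granule list highest in neutrophils (0.86).

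Interferon-stimulated genes had median log2 ratios of −0.24 in monocytes, −0.22 in NK cells, −0.05 in T cells, 0.09 in ILC2, 0.15 in B cells, 0.40 in macrophages and 0.41 in neutrophils (3 measured). In macrophages, 1 of 19 was at least 2-fold higher (background 2.51%) and 1 lower (background 1.82%). In macrophages the median was −0.57 in the low groups (19 WT and 36 APP cells) and 0.51 in the high groups, and in T cells 0.10 and −0.35. The other libraries gave −0.05 in macrophages and −0.78 in monocytes. Heat-shock chaperones lay between −0.25 and 0.39 in the 7 gates, and their sign differed between the low and high groups in NK cells, ILC2, monocytes and neutrophils.

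App and the genes of its processing (secretases, adaptors and amyloid-binding proteins) had list medians between −0.34 and −0.07 in the 7 gates, near the all-gene medians. App in macrophages, the gate where it was highest by CPM, was at 351 and 383 CPM in WT hashtags 6 and 7 and at 532, 374 and 329 CPM in APP hashtags 4, 6 and 7, with 346 against 358 CPM pooled (1.03-fold, 0.901 to 1.19). In ILC2, 1 of 10 measured members was at least 2-fold higher with its groups apart (background 1.57%), Ide, an enzyme that degrades insulin and amyloid-β, at 36.4 against 121 CPM. Apoe, also in this list, was at least 2-fold lower in ILC2 (489 against 23.5 CPM, groups overlapping) and in monocytes. Macrophage markers, Apoe among them, summed to 605 CPM in the WT and 44.7 CPM in the APP ILC2 gate. In the near-empty droplets they were at 2024 and 673 CPM. The part of macrophage RNA in the Apoe difference was not tested. In macrophages Psen2, a γ-secretase subunit, was at 107 against 55.8 CPM and Aph1a at 132 against 79.3 CPM, with the groups apart but less than 2-fold on the scale with 10 CPM added.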

How the data were processed

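Cells of 8 10x 5′ libraries were analysed, 1 for each genotype and treatment. The authors aligned the reads and counted UMIs with Cell Ranger 6.1.2 per the labels (mm10), and deposited unfiltered matrices of counts, including hashtag counts. The counts were filtered and gated as described above with Python 3.11.15, numpy 2.4.6, scipy 1.17.1 and pandas 2.3.3. No doublet caller was run, and the hashtag ratio removes doublets between hashtags only. Cells in several gates (246 WT and 232 APP) were counted in each. Genes that define a gate were left out of it. Transcript lengths and coordinates are from GENCODE vM21 (GRCm38), which held 32158 of 32285 genes. The length of a gene is that of its annotated principal transcript, the longest where there are several, or else of its longest transcript. The genotype test in the other 6 libraries used edgeR 4.0.16 (R 4.3.3, TMM, filterByExpr), with DESeq2 1.42.0 as an alternative, and was tested on simulated data. Named genes are, in each gate, the 4 largest rises and falls with hashtag groups apart, genes so called in 3 gates, and list members; 1 such gene is not reported here. Members and lists were chosen with earlier results of these data known. Figures were drawn with matplotlib 3.10.9.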

Additional observations from a re-analysis of the deposited data

Results flagged for a closer look

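In 8 of 79 sets of 4 hashtag groups, 1 group stood apart from the other 3 by Dixon's test, where chance gives 3.95. In T cells these were Gm21887 in WT hashtag 6 (226 CPM) and Il17a in APP hashtag 7 (2462 CPM). In B cells the highest groups were Gm21887 in WT hashtag 6 (336 CPM), Hist1h4d in WT hashtag 5 (26.3 CPM), Cma1 in WT hashtag 7 (499.9 CPM) and Ighg2c in APP hashtag 7 (1740 CPM), and the lowest were Rps29 in APP hashtag 7 (3345 CPM) and Igha in APP hashtag 6 (7.13 CPM).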

How the results depend on the processing

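Each genotype is 1 library, so the spread between mice is unknown, and hashtag groups of few cells limit macrophages and neutrophils. No paired analysis was possible because the labels give no replicate numbers. The cause of each change below was not tested. For the T share, thinning gave −0.131 and the mean of hashtags −1.81 points. Leaving out 1 hashtag group gave, in points, T −4.78 to 6.15, B −2.98 to 1.31, NK −1.29 to 0.720, ILC2 −2.33 to 0.548, macrophages −1.92 to 1.17, monocytes 0.918 to 2.77 and neutrophils −0.227 to 1.76. The low immediate-early groups gave NK 0.852, macrophages 0.421, monocytes 3.05 and neutrophils 1.63 points. Thinning, with the S100a8 minimum kept, gave neutrophils 0.163 points (0.535% of WT and 0.698% of APP cells), and a gate on Csf3r and Cxcr2, added later, 0.104 points. Of the counts at 2-fold (higher, then lower), leaving out 1 group gave T 60 to 84 and 10 to 43, B 89 to 120 and 33 to 54, NK 53 to 67 and 15 to 53, ILC2 55 to 94 and 31 to 101, macrophages 79 to 95 and 52 to 89, monocytes 69 to 171 and 23 to 166, and neutrophils 72 to 179 and 24 to 174. TMM gave 8 lower in T, and cells of exactly 1 gate 23. The low groups gave T 49 higher, ILC2 37 and 19, monocytes 25 lower and neutrophils 135 lower. The high groups gave NK 56 lower, ILC2 63 lower and monocytes 139 and 103. The mean CPM of hashtags gave macrophages 139 and 89 and neutrophils 167 and 151. Chosen after seeing the data, transcripts of at least 1000 nt gave T 17 and 4, B 24 and 7, NK 13 and 17, and 37 higher in ILC2, 29 in macrophages, 20 in monocytes and 29 in neutrophils, and centring by length gave 25 lower in neutrophils. Of the edgeR calls in the other 6 libraries, DESeq2 gave T 96, B 26, ILC2 18, monocytes 39 and neutrophils 37. No filter on low counts gave T 137, B 34, NK 217, ILC2 167, macrophages 62, monocytes 13 and neutrophils 260. All 8 libraries gave T 3, macrophages 9, monocytes 4 and neutrophils 2. Without the treatment term there were T 1, ILC2 13, macrophages 0, monocytes 0 and neutrophils 1. The high groups, added after seeing the data, gave T 2 (with 0 of the 19 called with all groups), B 1, NK 34, ILC2 14, monocytes 7 and neutrophils 1. Leaving out 1 treatment pair gave T 4 to 717, B 5 to 103, NK 47 to 143, ILC2 17 to 57, macrophages 7 to 252, monocytes 0 to 30 and neutrophils 7 to 124. Log2 ratios that changed sign in the low groups were Il17a in T (−0.16), Areg in ILC2 (0.70) and, with 19 WT cells, Jchain in macrophages (−1.40). With 4 WT cells in neutrophils, so did Ccl4 (0.45), Tnfaip6 (1.30), Mrgpra2b (2.53), Ptgs2 (0.79) and Ctsg (−1.21). Ms4a4b in ILC2 gave 0.021 in cells of exactly 1 gate, and Il17a in T ran from −2.80 without APP hashtag 7 to 2.26 without WT hashtag 6.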
